A study of Mus musculus with 40 samples.

Results

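Transcript levels of 9 genes that act on R-loops or at conflicts between transcription and replication were examined in mouse embryonic stem cells (mESCs). The genes were taken by name, with earlier results of these data known, and were found in both count tables, which list 55536 genes each. They are *Rnaseh1*, *Rnaseh2a*, *Rnaseh2b*, *Rnaseh2c*, *Aqr*, *Dhx9*, *Ddx5*, *Top1* and *Recql5*. All 9 passed the filter on low counts in every comparison.

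Poly(A) RNA was sequenced from mESCs of 3 genotypes, each treated for 4 h with DMSO or with 900 nM AZD6738, an inhibitor of the ATR checkpoint kinase (ATRi). WT cells were present as 2 biological replicates. The clones named D1, G2 and H5 lacked *Ccnc*, and those named B9, H4 and C8 lacked *Cdk8*. *Ccnc* encodes cyclin C, and *Cdk8* the kinase that cyclin C activates within the Mediator kinase module. Each knockout line is a single-cell CRISPR clone, expanded from cells that also expressed Cas9, so a difference between genotypes is carried by 3 clones of each gene. The 4 WT libraries were sequenced once in a multiplex with the *Ccnc* KO libraries and again in a multiplex with the *Cdk8* KO libraries, and the WT values of the multiplexes are therefore not independent. WT replicate 2 under ATRi was left out of the fits, as the study left it out, and its values are given beside the others. WT under ATRi is then 1 library in each multiplex, and its spread was taken from the other groups.

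R-loops are RNA:DNA hybrids that form when a nascent transcript anneals to its template and leaves the other DNA strand unpaired. RNase H enzymes cut the RNA of the hybrid, helicases unwind it, and topoisomerase I relieves the negative supercoiling behind RNA polymerase that lets it form. Hybrids that persist can stall a replication fork, which is a situation that activates ATR, and dividing stem cells replicate and transcribe their genomes at a high rate.

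The libraries held 33540088 to 49053522 counts in the *Ccnc* multiplex and 30899823 to 67274049 in the *Cdk8* multiplex. *Ccnc* was at 43.6 to 45.1 CPM (counts scaled to library size) in the 3 WT libraries of its multiplex that entered the fit and at 4.24 to 7.40 CPM in the 6 *Ccnc* KO libraries. *Cdk8* was at 71.2 to 78.6 CPM in the corresponding WT libraries of the *Cdk8* multiplex and at 52.3 to 64.5 CPM in the 6 *Cdk8* KO libraries, without overlap. A small insertion or deletion need not remove a transcript, and the protein was not measured in these data. Summed over 8 genes, stem cell markers ranged from 4303 to 4680 CPM in WT and from 3759 to 4320 CPM in *Ccnc* KO. They ranged from 4206 to 4589 CPM in WT and from 3202 to 4167 CPM in *Cdk8* KO. Primitive endoderm markers (10 genes) summed to 130 to 152 CPM in WT against 222 to 362 CPM in *Ccnc* KO, and 130 to 148 against 384 to 626 CPM in *Cdk8* KO. The stem cell sums overlapped slightly in the *Ccnc* multiplex alone, and the primitive endoderm sums in neither. Neuroectoderm markers (5 genes) were at 77.2 to 105 CPM in *Ccnc* KO and 70.7 to 112 CPM in *Cdk8* KO, against 103 to 126 CPM in WT. Fibroblast feeder markers (5 genes) were low but higher in every knockout library, at 8.24 to 12.98 CPM in *Ccnc* KO against 6.48 to 6.91 CPM in WT and at 8.86 to 25.2 CPM in *Cdk8* KO against 5.75 to 7.14 CPM in WT. Clone H4 stood apart among them at 22.2 and 25.2 CPM, and *Col3a1* was at 0 in the WT libraries of the *Ccnc* multiplex. WT replicate 2 under ATRi had 3.22% and 3.32% of its counts on mitochondrial genes in its 2 sequencing runs, against 1.10% to 2.16% in all other libraries. The part of these differences in the levels below was not tested, and in bulk RNA fewer cells of a type and less RNA per cell cannot be told apart.

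The 9 genes spanned a wide range of abundance. On a scale that also divides by exonic length (RPKM), *Ddx5* was the most abundant, at 165 ± 9.68 among *Ccnc* multiplex libraries and 173 ± 8.51 among those of the *Cdk8* multiplex (SD, n = 9 libraries over genotypes and treatments). *Dhx9* followed at 87.5 ± 4.57 and 90.3 ± 5.73 RPKM, and *Rnaseh2a* at 51.0 ± 4.31 and 47.0 ± 2.90 RPKM. The order then ran through *Rnaseh2c* (27.7 and 25.8 RPKM), *Aqr* (23.3 and 24.4), *Top1* (17.7 and 18.7), *Rnaseh1* (14.1 and 13.9), *Rnaseh2b* (9.17 and 9.01) and *Recql5* (5.87 and 5.86). The lowest of them, *Recql5*, was still above 62.2% of the genes tested in the *Ccnc* multiplex, and *Ddx5* above 98.5%. The ranges of *Rnaseh2c* and *Aqr* and those of *Aqr* and *Top1* overlapped in both multiplexes, and those of *Top1* and *Rnaseh1* in the *Ccnc* multiplex. The order of these neighbours is therefore not fixed by the libraries, whereas the other neighbours did not overlap on this scale. The exonic length joins all annotated exons of a gene, so the order between genes also depends on the annotation. In CPM, *Aqr* averaged 277 and *Rnaseh2a* 163 in the WT libraries in the fit of the *Ccnc* multiplex. Reads could also be shared with near-identical copies for 2 of the genes. Of 50-base stretches of *Ddx5* exons, 14.6% recurred in another gene, mainly the processed pseudogene *Gm12183*, whose counts were 3.53% to 6.76% of those of *Ddx5*. For *Rnaseh2a* the share was 9.80%, most of it in *Gm49661*, which overlaps its exons by 339 bases on the same strand and had no count in any library. Reads in that overlap may be assigned to neither gene, so the absence of counts does not show that none fell there. The pseudogene *Gm15703* held 4.36% to 6.76% of the counts of *Rnaseh2a*. The levels of *Ddx5* and *Rnaseh2a* are uncertain to that degree. For the other 7 genes at most 0.806% of the stretches recurred elsewhere.

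**Figure D1:**
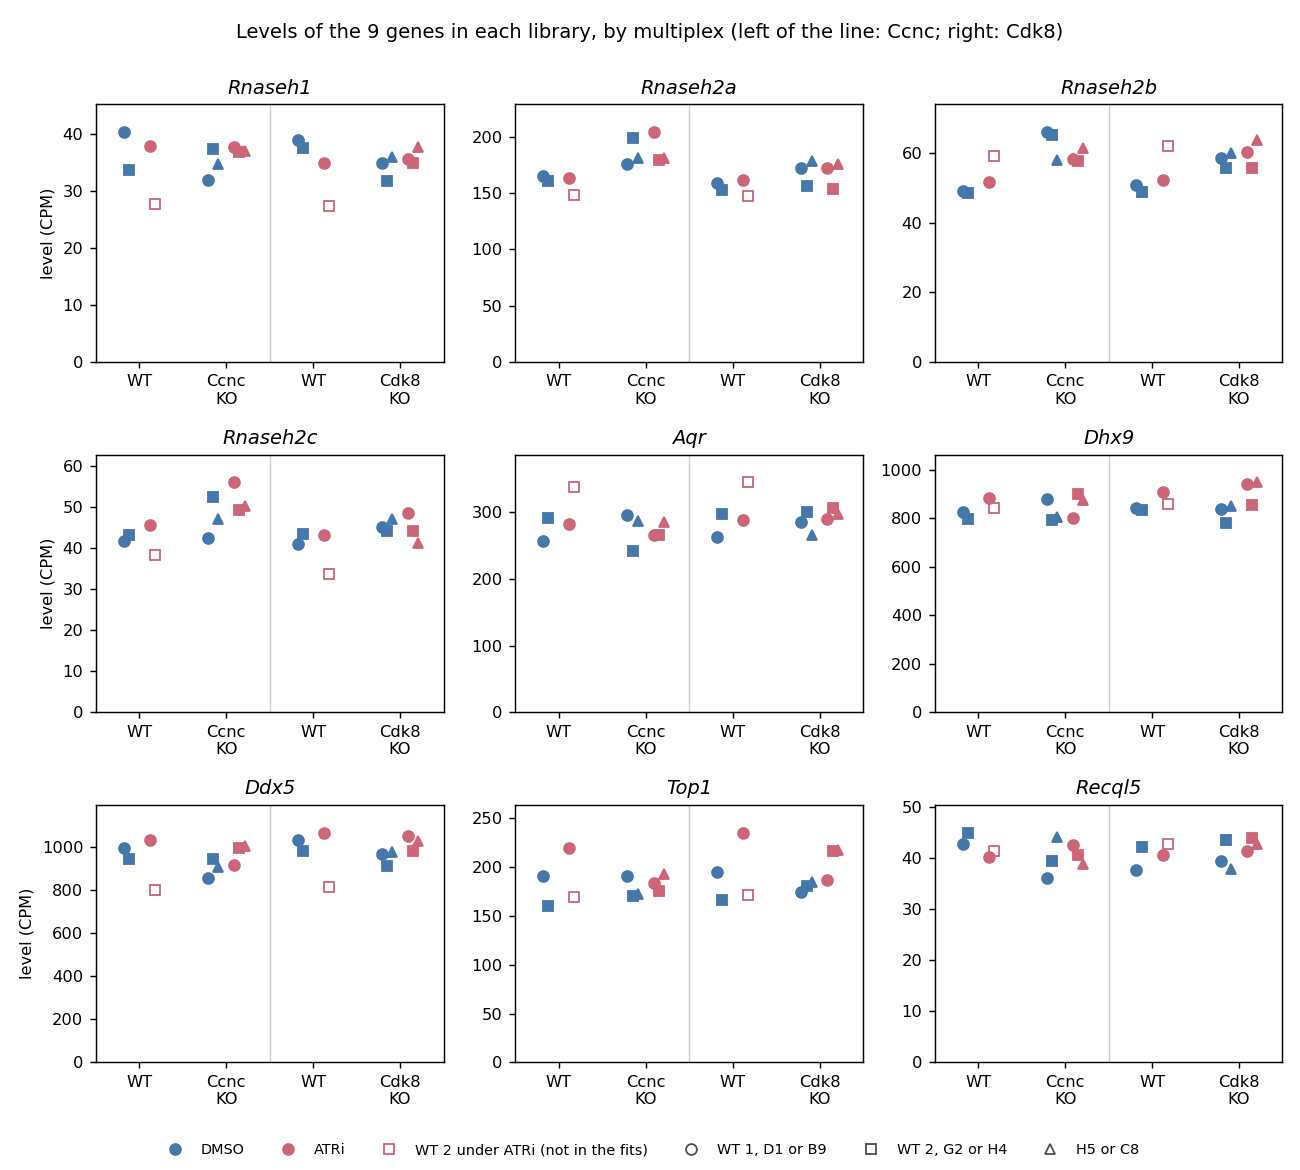
Levels of the 9 genes in each library, 1 panel per gene, in CPM on axes that start at 0, with WT and *Ccnc* KO of the *Ccnc* multiplex left of the line and WT and *Cdk8* KO of the *Cdk8* multiplex right of it (blue: DMSO, red: ATRi, marker shape: replicate or clone, open square: WT replicate 2 under ATRi). *Rnaseh2b* and *Rnaseh2a* of *Ccnc* KO lay above the filled WT symbols, and the open square of *Rnaseh2b* lay among the knockout libraries.

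RNase H2 is a trimer that removes RNA from hybrids and single ribonucleotides from DNA. *Rnaseh2a* encodes its catalytic subunit (GRCm38 chr8:84956610-84969767, minus strand), *Rnaseh2b* a subunit that contacts the replication clamp PCNA (chr14:62292589-62372992, plus strand), and *Rnaseh2c* a structural partner (chr19:5601873-5607019, plus strand). *Rnaseh2b* and *Rnaseh2a* were the members that rose in *Ccnc* KO, by 23.6% and 14.6%. RefSeq (GRCm38.p6) gave a promoter for 7 of the 9 genes, *Rnaseh1* and *Rnaseh2b* being those without one here. The 250 bases before the RefSeq start are shown for the subunits of this trimer that had one, *Rnaseh2a* and *Rnaseh2c*. Their log2 differences in *Ccnc* KO were close, at 0.20 and 0.17, although *Rnaseh2a* passed the test and *Rnaseh2c* did not. The promoters therefore do not contrast a gene that changed with one that did not. The *Rnaseh2a* window is chr8:84966077-84966326 on the minus strand and lies within the gene span that GENCODE gives, and the *Rnaseh2c* window is chr19:5601623-5601872 on the plus strand. Capitals mark 2 motifs searched on both strands, CCAAT (or its reverse ATTGG) and the GC box GGGCGG (or CCGCCC).
Rnaseh2a: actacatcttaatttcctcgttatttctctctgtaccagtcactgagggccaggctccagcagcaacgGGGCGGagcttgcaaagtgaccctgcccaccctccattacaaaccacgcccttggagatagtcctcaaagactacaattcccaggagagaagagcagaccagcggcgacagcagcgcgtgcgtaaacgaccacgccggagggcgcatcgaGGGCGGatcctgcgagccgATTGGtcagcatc
Rnaseh2c: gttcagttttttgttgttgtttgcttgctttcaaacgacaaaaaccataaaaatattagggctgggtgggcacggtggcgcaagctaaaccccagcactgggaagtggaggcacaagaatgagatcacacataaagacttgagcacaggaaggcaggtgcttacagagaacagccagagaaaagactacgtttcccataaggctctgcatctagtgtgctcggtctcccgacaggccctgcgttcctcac
*Rnaseh2a* held 1 CCAAT motif 9 bases from the start and 2 GC boxes, the nearest 27 bases from it. *Rnaseh2c* held neither motif in this window. For comparison, CCAAT occurred in 33.8% and GGGCGG in 32.7% of the 32851 promoter windows of the same length.

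*Rnaseh2b* was at 49.2 and 48.4 CPM in WT replicates 1 and 2 under DMSO and at 51.5 CPM in WT replicate 1 under ATRi. In *Ccnc* KO it was at 66.0 CPM in D1, 65.1 in G2 and 57.9 in H5 under DMSO, and at 58.2, 57.6 and 61.5 CPM in the same clones under ATRi. All 6 knockout libraries were above these 3 WT libraries, and the lowest knockout value was 57.6 CPM. The fitted difference was 0.31 on the log2 scale (SE 0.064, 95% confidence interval 0.17 to 0.44), or 23.6%, with an adjusted p of 0.00567 (edgeR's quasi-likelihood test, Benjamini-Hochberg over all genes). WT replicate 2 under ATRi was at 59.0 CPM, within the knockout range. With that library in the fit the difference was 0.23 and the adjusted p 0.0621, and without WT replicate 1 it was 0.38 with an adjusted p of 0.104, so this call rests on which WT libraries enter.

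*Rnaseh2a* was at 165 and 161 CPM in the WT libraries under DMSO and 164 CPM in WT replicate 1 under ATRi. The *Ccnc* KO clones D1, G2 and H5 were at 176, 199 and 181 CPM under DMSO and at 204, 179 and 181 CPM under ATRi. Again all 6 were above the WT libraries, including WT replicate 2 under ATRi at 148 CPM. The difference was 0.20 (SE 0.061, interval 0.07 to 0.33), or 14.6%, with an adjusted p of 0.0473, close to the threshold of 0.05. The adjusted p was 0.368 without WT replicate 1, 0.127 without WT replicate 2, 0.134 without clone G2 and 0.0671 without clone H5, so each of these decided the call. The libraries of a clone are not independent, and with the clone as random effect (limma) the adjusted p was 0.0661. It was 0.0998 at a difference of 0.13 with the GC content and length trend removed, and 0.213 in DMSO libraries alone.

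*Rnaseh2c* was at 41.6 and 43.2 CPM in WT under DMSO and 45.6 CPM in WT replicate 1 under ATRi. In *Ccnc* KO it was at 42.4, 52.4 and 47.0 CPM under DMSO (D1, G2, H5) and 56.0, 49.4 and 50.3 CPM under ATRi. D1 under DMSO lay within the WT range, and the other 5 knockout libraries lay above it. The difference of 0.17 (interval 0.02 to 0.33) had an unadjusted p of 0.0297 and an adjusted p of 0.135 in edgeR's test, and without clone D1 it was 0.19 with an adjusted p of 0.0431, where 14.3% of genes passed.

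In *Ccnc* KO against WT, 2 of the 9 genes thus passed an adjusted p of 0.05, both higher, where 12.3% of the 18577 genes tested passed and 7.01% passed as higher. Neither also reached a fold of 2, which 1.94% of genes did together with the adjusted p. Differences larger in size than that of *Rnaseh2b* were held by 28.3% of all genes tested, and larger than that of *Rnaseh2a* by 43.0%. The median of the 9 log2 differences was -0.01, beside 0.00 over all genes. *Rnaseh2a* and *Rnaseh2b* were the members whose knockout and WT libraries did not overlap, and 7.53% of all genes had every knockout library above every WT library. When WT replicate 2 under ATRi was counted, *Rnaseh2a* alone remained without overlap.

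In the *Cdk8* multiplex the same WT libraries, sequenced again, had *Rnaseh2b* at 50.9 and 48.9 CPM under DMSO and 52.2 CPM under ATRi (replicate 1). The *Cdk8* KO clones B9, H4 and C8 were at 58.6, 55.8 and 60.0 CPM under DMSO and 60.3, 55.8 and 63.6 CPM under ATRi. All 6 were above the 3 WT libraries, as 6.59% of all genes were, while WT replicate 2 under ATRi was at 62.1 CPM, among the highest. The difference was 0.21 (SE 0.055, interval 0.09 to 0.33), or 15.8%, and did not pass the test (unadjusted p 0.00317, adjusted p 0.0595 in edgeR). It passed with DESeq2 (adjusted p 0.0125, where 9.61% of genes passed) and without clone H4, at 0.25 with an adjusted p of 0.0171 (7.13% of genes). With WT replicate 2 under ATRi included it was 0.14 with an adjusted p of 0.224, and over 12 alternatives it ranged from 0.11 to 0.25, with adjusted p up to 0.525 and 2 calls. Both libraries of a clone enter the main fit as if independent, so its SE and interval may be too small. With the clone as random effect (limma) *Rnaseh2b* did not pass, and 237 of all genes did, beside 806 in the main fit.

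*Rnaseh2a* and *Rnaseh2c* differed less between *Cdk8* KO and WT. *Rnaseh2a* was at 159, 153 and 162 CPM in WT and at 173, 157 and 179 CPM under DMSO and 173, 154 and 176 CPM under ATRi in B9, H4 and C8. Clone H4 lay within the WT range under both treatments, and B9 and C8 lay above it. The log2 difference was 0.09 (interval -0.04 to 0.22) for *Rnaseh2a* and 0.08 (interval -0.05 to 0.22) for *Rnaseh2c*, with adjusted p values of 0.401 and 0.475 in edgeR. None of the 9 genes passed in *Cdk8* KO against WT, where 4.31% of 18721 genes did. The median of the 9 log2 differences was 0.03, beside 0.01 over all genes.

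The RNase H2 subunits were also set side by side between the knockouts, with the multiplex as a term in the fit. *Rnaseh2b* was 0.08 higher in *Ccnc* KO than in *Cdk8* KO on the log2 scale (interval -0.09 to 0.25), *Rnaseh2a* 0.10 higher (interval -0.07 to 0.27) and *Rnaseh2c* 0.11 higher (interval -0.09 to 0.31). None of the 9 passed, and 0.00545% of the 18349 genes did, which is *Ccnc* alone. A larger rise in *Ccnc* KO than in *Cdk8* KO was therefore not shown, and the intervals also do not show that the knockouts had the same level. Because the WT libraries enter this fit in both multiplexes, the spread may be too small.

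Genes of S phase moved in the same direction as the RNase H2 subunits. The S-phase list was chosen with earlier results of these data known, so its counts beside the share of all genes are descriptive. In *Ccnc* KO against WT, 10 of 21 S-phase genes rose and none fell, beside 7.01% of all genes that rose, with a median log2 difference of 0.16. Among them *Rrm2*, which makes deoxyribonucleotides, rose by 0.46 and the clamp gene *Pcna* by 0.31. Of the 21 genes, 3 rose without WT replicate 1, 4 without WT replicate 2 and 4 without clone G2, while the calls over all genes ranged from 289 to 2640 with a replicate left out. Their levels summed to 7090 to 7695 CPM in WT and 7889 to 8565 CPM in *Ccnc* KO, without overlap. In *Cdk8* KO 3 of 21 rose, among them *Rrm2* and *Ccne2* by 0.37 each, beside 2.28% of all genes, and the sums overlapped at 7012 to 7741 CPM in WT and 7310 to 8531 CPM in the knockout. In *Cdk8* KO 9 of the 21 rose without clone H4, 1 without clone C8, 1 without WT replicate 2 and 0 without WT replicate 1, in edgeR's test, while the calls over all genes ranged from 1 to 1512 with a replicate left out. WT replicate 2 under ATRi, in which *Rnaseh2b* was at the knockout level, was at 7119 and 7052 CPM, in the lower part of the WT range. The part of S-phase content in the subunits' levels was not tested. By DNA content and EdU labelling, the paper found the cell cycle profiles of untreated knockout cells not discernibly different from WT.

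*Rnaseh1* encodes the monomeric RNase H (chr12:28649602-28659589, plus strand), which cuts longer hybrids in nuclei and mitochondria. It was at 40.4 and 33.7 CPM in WT under DMSO and 37.9 CPM in WT replicate 1 under ATRi, and at 31.9, 37.3 and 34.7 CPM (DMSO) and 37.7, 36.8 and 37.0 CPM (ATRi) in D1, G2 and H5. The WT and knockout ranges overlapped, and the difference was -0.07 (interval -0.22 to 0.09). In the *Cdk8* multiplex it was at 38.9, 37.6 and 34.9 CPM in WT and at 31.8 to 37.8 CPM in *Cdk8* KO, a difference of -0.08 (interval -0.23 to 0.07). Neither passed (adjusted p 0.609 and 0.535 in edgeR). Its lowest values, 27.7 and 27.4 CPM, were those of WT replicate 2 under ATRi.

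**Figure D2:**
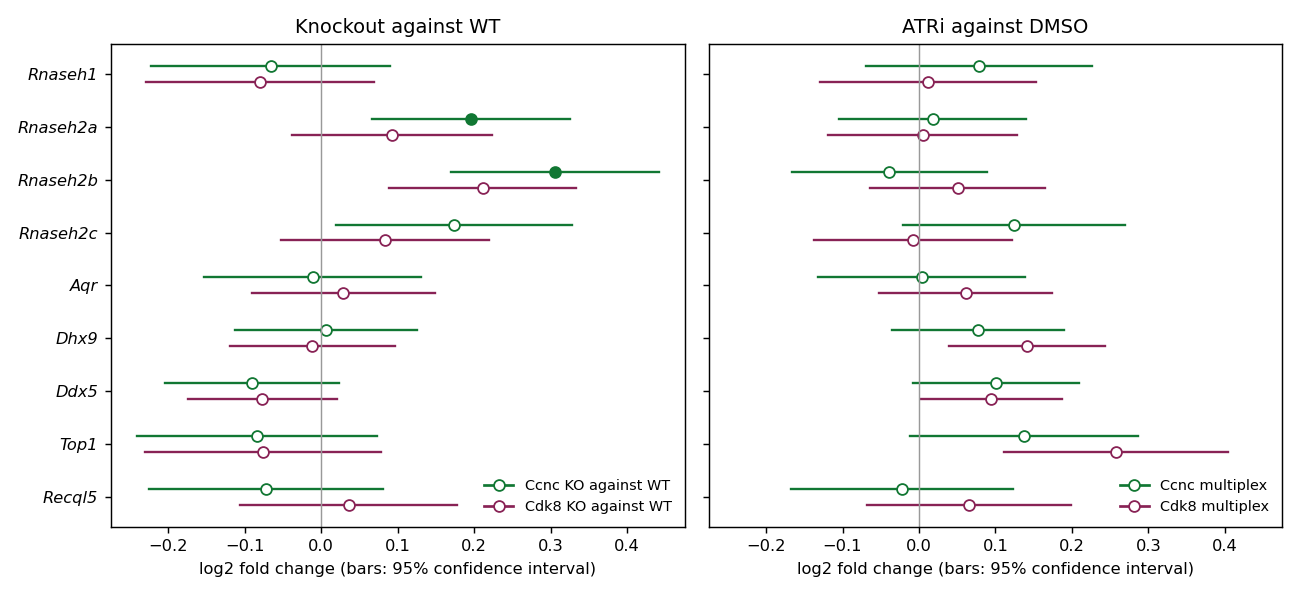
Fitted log2 fold changes of the 9 genes with 95% confidence intervals, for knockout against WT (left) and for ATRi against DMSO (right), with filled points for an adjusted p under 0.05. The filled points are *Rnaseh2a* (0.20) and *Rnaseh2b* (0.31) in *Ccnc* KO, and *Top1* in the *Cdk8* multiplex (0.26) was the largest ATRi difference.

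The helicases *Aqr*, *Dhx9* and *Ddx5* unwind RNA:DNA hybrids or the RNA structures around them. AQR (*Aqr*, chr2:114101170-114187024, minus strand) is also an intron-binding spliceosome component, DHX9 (*Dhx9*, chr1:153455758-153487660, minus strand) RNA helicase A, and DDX5 (*Ddx5*, chr11:106780355-106789185, minus strand) a DEAD-box protein. In *Ccnc* KO against WT their log2 differences were -0.01 (interval -0.15 to 0.13), 0.01 (-0.11 to 0.12) and -0.09 (-0.20 to 0.02). In *Cdk8* KO against WT they were 0.03 (interval -0.09 to 0.15), -0.01 (-0.12 to 0.10) and -0.08 (-0.17 to 0.02). After rounding, all these intervals lay between -0.20 and 0.15, and the knockout and WT ranges of each helicase overlapped in both multiplexes.

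*Top1* encodes topoisomerase I (chr2:160645888-160722764, plus strand), and *Recql5* a RecQ helicase that binds RNA polymerase II and acts where it meets the replisome (chr11:115892595-115933477, minus strand). *Top1* varied most in proportion to its mean between the 3 WT libraries in the fit of the *Ccnc* multiplex (190 ± 29.9 CPM, SD, n = 3). With WT replicate 2 under ATRi counted, *Rnaseh1* varied more in proportion (34.9 ± 5.56 CPM, against 185 ± 26.6 CPM for *Top1*, n = 4). *Top1* was at 191 and 160 CPM under DMSO and 220 CPM (replicate 1) and 169 CPM (replicate 2) under ATRi. In *Ccnc* KO it stayed between 171 and 193 CPM, within the WT range. The differences were -0.08 in *Ccnc* KO (interval -0.24 to 0.07) and -0.08 in *Cdk8* KO (interval -0.23 to 0.08). *Recql5* was at 42.7, 44.9 and 40.2 CPM in WT and 36.1 to 44.1 CPM in *Ccnc* KO, a difference of -0.07 (interval -0.22 to 0.08). In the *Cdk8* multiplex it was at 37.6, 42.1 and 40.5 CPM in WT and 37.8 to 43.8 CPM in the knockout, a difference of 0.04 (interval -0.11 to 0.18).

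The response to ATRi was compared next, over all genotypes of a multiplex. No member passed in the *Ccnc* multiplex, where 1.11% of genes did, and none in the *Cdk8* multiplex, where 0.0855% did. At an unadjusted p under 0.05 there were 0 members in the *Ccnc* and 3 in the *Cdk8* multiplex (*Top1*, *Dhx9* and *Ddx5*), where 16.2% and 11.5% of genes had such a p. Both libraries of a clone come from the same cell line, so the clone was also entered as a replicate block. With the block, *Top1* and *Dhx9* rose in the *Cdk8* multiplex, where 11.3% of genes then passed and 4.87% passed as higher. No member passed with the block in the *Ccnc* multiplex.

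*Top1* in the *Cdk8* multiplex was at 195 CPM under DMSO and 235 CPM under ATRi in WT replicate 1, and at 167 and 172 CPM in WT replicate 2. It went from 175 to 187 CPM in B9, from 181 to 216 CPM in H4 and from 185 to 218 CPM in C8. Every replicate and clone was higher under ATRi, by 0.04 (WT replicate 2) to 0.27 (WT replicate 1) on the log2 scale. The fitted difference was 0.26 (SE 0.066, interval 0.11 to 0.40), with an adjusted p of 0.182, and with the clone as replicate block 0.22 (SE 0.034) with an adjusted p of 0.0015 in edgeR. With WT replicate 2 under ATRi included beside the block, a fit chosen after the data were seen, it was 0.18 and the adjusted p 0.0685. In the *Ccnc* multiplex *Top1* changed by -0.05 in D1, 0.04 in G2 and 0.17 in H5, and the difference of 0.14 did not pass (adjusted p 0.354, and 0.436 with the block).

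*Dhx9* in the *Cdk8* multiplex went from 842 to 910 CPM in WT replicate 1 and from 833 to 860 CPM in WT replicate 2. In the clones it went from 839 to 942 CPM (B9), from 783 to 854 CPM (H4) and from 851 to 948 CPM (C8). The rise was close in size in the 3 clones, at 0.17, 0.13 and 0.16 on the log2 scale, although H4 was lower than B9 and C8 under both treatments. The fitted difference was 0.14 (SE 0.046) with an adjusted p of 0.289, and with the block 0.14 (SE 0.027) with an adjusted p of 0.0042 in edgeR. With WT replicate 2 under ATRi included as well, it was 0.12 with an adjusted p of 0.110. In the *Ccnc* multiplex clone D1 was lower under ATRi (881 to 803 CPM), and G2 and H5 were higher (792 to 901 CPM and 804 to 875 CPM).

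The promoters of *Top1* (chr2:160645647-160645896, plus strand) and *Dhx9* (chr1:153487661-153487910, minus strand) are shown because these genes moved under ATRi with the block. Capitals again mark CCAAT and GGGCGG on either strand, in the 250 bases before the RefSeq start.
Top1: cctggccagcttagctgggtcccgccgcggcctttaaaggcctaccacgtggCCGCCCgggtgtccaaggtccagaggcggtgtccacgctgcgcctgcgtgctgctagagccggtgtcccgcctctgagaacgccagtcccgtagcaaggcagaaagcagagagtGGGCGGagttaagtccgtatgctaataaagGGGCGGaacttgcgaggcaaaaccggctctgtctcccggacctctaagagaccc
Dhx9: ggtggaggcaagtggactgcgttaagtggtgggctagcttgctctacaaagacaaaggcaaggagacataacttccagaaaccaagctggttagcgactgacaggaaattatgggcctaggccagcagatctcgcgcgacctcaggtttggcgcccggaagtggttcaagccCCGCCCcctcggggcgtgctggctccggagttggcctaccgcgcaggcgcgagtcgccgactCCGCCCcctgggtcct
*Top1* held 3 GC boxes, the nearest 49 bases from the start, and *Dhx9* held 2, the nearest 11 bases from it. Neither held a CCAAT motif in this window.

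Within the *Cdk8* KO clones alone, 7 of the 9 genes were higher under ATRi in all 3 clones, where 20% of all genes were. The exceptions were *Rnaseh2a*, at -0.00 to -0.03, and *Rnaseh2c*, higher in 1 of 3. No member passed in this comparison, and 0 of 17162 genes did in edgeR, with 5.94% at an unadjusted p under 0.05 and 0.338% passing in DESeq2. With the clone as replicate block *Top1* (0.20, SE 0.040, adjusted p 0.0111) and *Dhx9* (0.15, SE 0.033, adjusted p 0.0172) passed, where 6.95% of genes did. Within the *Ccnc* KO clones *Ddx5* was the member higher in all 3 clones, by 0.07 to 0.15, where 17.4% of all genes were higher in each clone. No member passed there, with or without the block, and 0.0894% of genes passed without it.

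**Figure D3:**
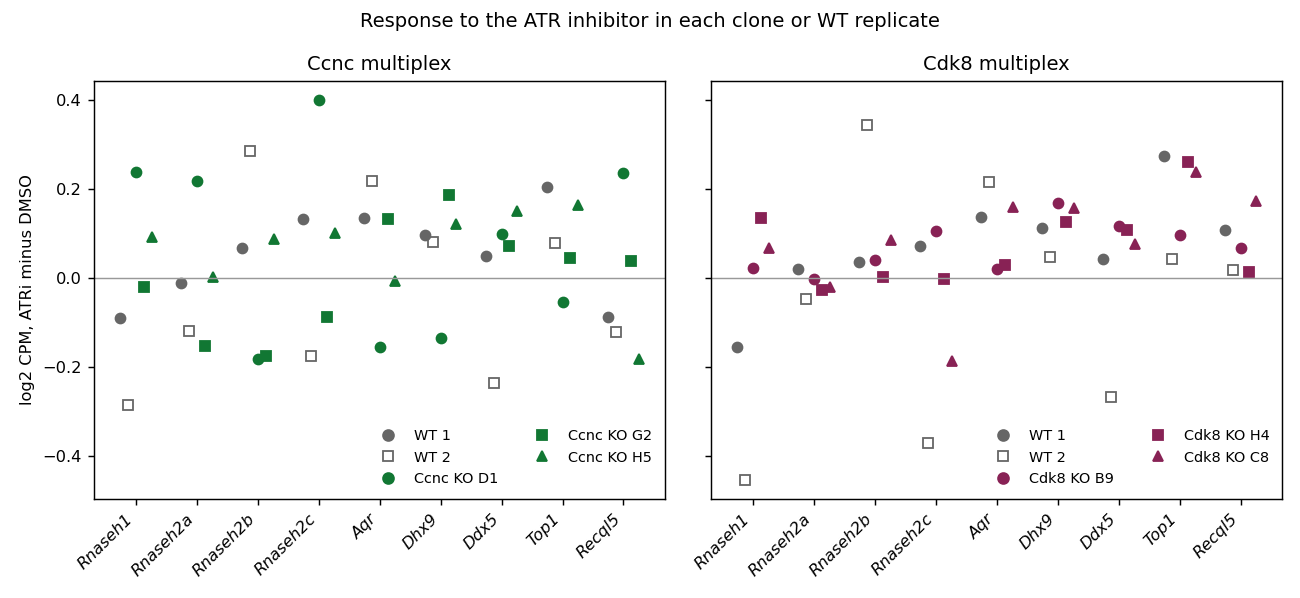
Response to ATRi of each replicate and clone, as the log2 level under ATRi minus that under DMSO, for the 9 genes in the *Ccnc* multiplex (left) and the *Cdk8* multiplex (right), with WT in grey (open square: WT replicate 2) and the knockout clones in colour. For *Dhx9* in the *Cdk8* multiplex the clones lay between 0.13 and 0.17, and for *Rnaseh1* they lay above 0 while both WT replicates lay below it.

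The responses of single clones differed in sign for several genes. In the *Ccnc* multiplex *Rnaseh2c* changed by 0.40 in D1, -0.09 in G2 and 0.10 in H5, and *Rnaseh2a* by 0.22, -0.15 and 0.00. *Rnaseh2b* changed by -0.18 in D1, -0.17 in G2 and 0.09 in H5, and *Recql5* by 0.24, 0.04 and -0.18. Of the 3 clones D1 had the highest response of *Rnaseh1*, *Rnaseh2a*, *Rnaseh2c* and *Recql5* and the lowest of *Rnaseh2b*, *Aqr*, *Dhx9* and *Top1*. GC content was 46.5% to 58.1% in the former genes and 42.1% to 47.5% in the latter. The part of GC content in the responses of single clones was not tested. In the *Cdk8* multiplex the clones lay close together for *Ddx5*, at 0.12 in B9, 0.11 in H4 and 0.08 in C8, and *Rnaseh2b*, at 0.04, 0.00 and 0.08. *Rnaseh2c* was the member whose *Cdk8* KO clones spread most, at 0.10 in B9, -0.00 in H4 and -0.19 in C8. The same WT library sequenced in both multiplexes differed by -0.19 to 0.16 over the 9 genes, which is the size of many of these responses.

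The interaction of genotype and ATRi, which asks whether a knockout responded differently from WT, passed for 0 of the 9 genes in either knockout, and for 0% of all genes in edgeR. At an unadjusted p under 0.05, 2.13% of genes had an interaction with *Ccnc* KO and 1.36% with *Cdk8* KO, and no member did. DESeq2 likewise gave 0 genes at an adjusted p under 0.05 in both. The largest values were -0.29 for *Top1* with *Ccnc* KO (interval -0.59 to 0.01, unadjusted p 0.0559 in edgeR) and 0.21 for *Rnaseh1* with *Cdk8* KO (interval -0.09 to 0.50, unadjusted p 0.149). For *Top1* with *Ccnc* KO it was -0.10 with WT replicate 2 under ATRi included and -0.16 with the clone as replicate block, and for *Rnaseh1* with *Cdk8* KO 0.37 and 0.23.

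The pathway around the members was read from 4 further lists, also chosen with earlier results of these data known. Of 15 other helicases linked to R-loops, *Ddx19a*, an mRNA export helicase (0.23, SE 0.052, adjusted p 0.0092), and *Brip1*, the FANCJ helicase (0.25, SE 0.068, adjusted p 0.0285), rose in *Ccnc* KO. *Pif1*, a helicase of G-quadruplexes and hybrids, fell by 0.28 (SE 0.069, adjusted p 0.0146), and the median of the 15 was -0.05. None of 10 THO, mRNP and termination factors passed. Of 7 other topoisomerases and partners, *Top2b*, topoisomerase II beta, fell by 0.35 (SE 0.055, adjusted p 0.000745). Of 16 factors of conflict resolution and fork protection, the remodeller gene *Ino80* fell by 0.19 (adjusted p 0.0442) and the PCNA unloader gene *Atad5* by 0.21 (adjusted p 0.0405) in edgeR's test. The counts of 2 higher and 4 lower of 48 genes stand beside 7.01% and 5.28% of all genes. Without WT replicate 1 none of these 6 passed, without WT replicate 2 *Ddx19a*, *Pif1* and *Top2b* did, without clone G2 *Pif1* and *Top2b*, and without clone H5 all but *Brip1* and *Ino80*. With the clone as random effect *Ino80* (adjusted p 0.0598) and *Atad5* (0.0560) did not pass in limma, and *Atad5* did not with WT replicate 2 under ATRi included (0.168). *Ddx19a* was at 0.13 with an adjusted p of 0.0649 with the GC content and length trend removed, and in DMSO libraries alone *Top2b* was the gene of the 6 that passed.

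*Top2b* had the smallest adjusted p of these genes. It was at 78.3, 75.5 and 78.5 CPM in the WT libraries and at 60.9, 59.2 and 63.6 CPM under DMSO and 56.5, 60.3 and 61.0 CPM under ATRi in D1, G2 and H5. Every knockout library was below these WT libraries, as for 6.93% of all genes tested. WT replicate 2 under ATRi, at 62.1 CPM, was within the knockout range. In *Cdk8* KO against WT no gene of the 4 lists passed, and *Top2b* differed by -0.16 there.

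Under ATRi none of the THO, mRNP and termination factors, of the other topoisomerases and partners or of the conflict and fork protection factors passed in either multiplex. The median log2 differences of the helicases, the THO, mRNP and termination factors, the topoisomerases and the conflict factors were 0.09, 0.08, -0.02 and 0.03 in the *Ccnc* multiplex. They were 0.04, 0.05, -0.02 and 0.04 in the *Cdk8* multiplex, beside -0.01 over all genes in each.

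**Figure D4:**
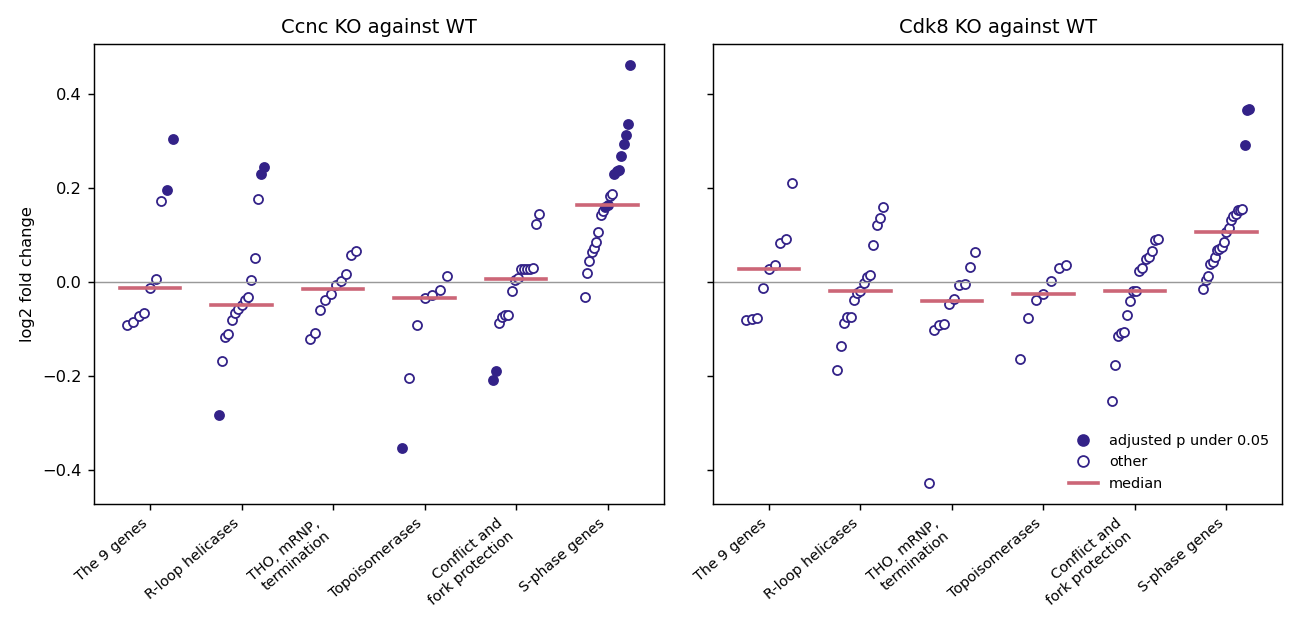
Log2 fold changes of the 9 genes, of the 4 pathway lists and of the 21 S-phase genes in *Ccnc* KO (left) and *Cdk8* KO (right) against WT, with 1 point per gene, filled for an adjusted p under 0.05, and a red line at each list's median. The S-phase genes had the highest median in both panels (0.16 and 0.11), and the 9 genes lay near 0 in the median (-0.01 and 0.03).

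For each member, the gene whose log2 levels ran most alike over the 9 libraries of both multiplexes was looked up among 8981 genes above 10 CPM on average. *Rnaseh2b* ran closest to *Lgmn* (Pearson's r 0.93 and 0.95 in the *Ccnc* and *Cdk8* multiplex), *Rnaseh2a* to *Mrps16* (0.92 and 0.92), *Rnaseh2c* to *Pgp* (0.87 and 0.84) and *Rnaseh1* to *Kcnk5* (0.77 and 0.76). *Dhx9* ran closest to *Tax1bp1* (0.94 and 0.92), *Ddx5* to *Rmnd5a* (0.91 and 0.92), *Aqr* to *Tjp1* (0.91 and 0.93), *Top1* to *Tpx2* (0.84 and 0.89) and *Recql5* to *Wwc2* (0.80 and 0.87). The libraries share genotype, treatment and WT replicates, so these values describe the libraries and carry no test. No member had another member as its closest gene.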

How the data were processed

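Poly(A) RNA from mESCs was sequenced from directional, single-end libraries, 10 in each of 2 multiplexes with the same 4 WT libraries in both, on 2 lanes each. As deposited, the tables hold raw counts per gene and lane, which the authors made by trimming with Trimmomatic 0.38, aligning to GRCm38.p6 with HISAT2 2.1.0 and counting by strand with featureCounts 2.0.1, with reads marked as duplicates ignored. Regularised log tables from DESeq2 were not used here. Lanes were summed per library, which held 30899823 to 67274049 counts. Counts per member differed widely, for example 1077 for *Rnaseh1* in D1 under DMSO and 67970 for *Ddx5* in C8 under ATRi. Counting error therefore weighs more on the less abundant members.

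Counts were tested with edgeR 4.0.16 (R 4.3.3) by its quasi-likelihood test after TMM scaling and filterByExpr, per multiplex, with treatment or genotype as covariate, and called at a Benjamini-Hochberg adjusted p under 0.05 over all genes tested. Samples were grouped by the genotype, clone and treatment labels. WT replicate 2 under ATRi was left out of the fits. CPM values use TMM library sizes, RPKM values the exonic length in GENCODE M21, and log2 levels a prior count of 2. The scripts were tested on simulated data. The members and the gene lists were chosen with earlier results of these data known. The genes named are the 9 members, the targeted genes and the genes of the fixed lists that passed a test. Some list genes are not reported here, although the counts, medians and plots of the lists include them. Alternatives were DESeq2 1.42.0 as scaling or as test, no filter on low counts, a GC content and length trend, WT replicate 2 under ATRi included, the clone as random effect (limma 3.58.1), DMSO alone, each replicate left out, and the clone as replicate block.

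Lanes of 1 library differed little beyond sampling noise (chi-square per degree of freedom 1.31 to 1.43, over genes), clones by 6.06 to 37.3 and WT replicates by 12.4 to 92.6, so no samples were merged as duplicates. P-values for WT rest on 2 biological replicates. The main genotype fits take both libraries of a clone as independent, so their SEs and intervals may be too small. The pairing of DMSO and ATRi libraries comes from the design, since both are the same clone. Deviations from the group means correlated between them at 0.85, 0.91 and 0.56 in B9, H4 and C8, at 0.24, -0.03 and 0.29 in D1, G2 and H5, and at 0.45 and 0.43 in WT in the *Ccnc* and *Cdk8* multiplex.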

Additional observations from a re-analysis of the deposited data

Results flagged for a closer look

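The response of *Rnaseh1* to ATRi had opposite signs in WT and *Cdk8* KO. In the *Cdk8* multiplex it was lower under ATRi in both WT replicates (-0.16 in replicate 1 and -0.45 in replicate 2 on the log2 scale). It was higher in all 3 *Cdk8* KO clones (0.02, 0.14 and 0.07). The value of replicate 2 rests on the library left out of the main fits. Sequenced in the *Ccnc* multiplex, the same WT libraries gave -0.09 and -0.29. The interaction was 0.21 (unadjusted p 0.149, adjusted p 1.00 in edgeR), so the difference was not shown by its own test. With WT replicate 2 under ATRi included it was 0.37 (unadjusted p 0.0424), with the clone as replicate block 0.23 (unadjusted p 0.0382), and with both, a fit chosen after the data were seen, 0.38 (unadjusted p 0.0093). No adjusted p of these fits passed. *Rnaseh1* was singled out as the member with the largest interaction with *Cdk8* KO in size, so these unadjusted p values are not those of a gene set in advance.

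WT replicate 2 under ATRi, which entered no main comparison, had *Rnaseh2b* at 59.0 CPM in the *Ccnc* multiplex and 62.1 CPM in the *Cdk8* multiplex, above every other WT library of the multiplex. *Aqr* in the same library was at 339 and 345 CPM, again above every other WT library. Both values repeat in the 2 sequencing runs of what is 1 library. That library also had the highest share of counts on mitochondrial genes. The part of library quality or GC content in these values was not tested.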

How the results depend on the processing

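Of the 9 genes, the number called in *Ccnc* KO against WT was 2, and it was 1 with DESeq2 size factors in edgeR, with the GC content and length trend removed, with WT replicate 2 under ATRi included, with the clone as random effect and in DMSO libraries alone, and 0 (without WT replicate 1) to 3 (without clone D1) with a replicate left out. *Rnaseh2b* was called in 10 of 12 alternatives (log2 difference 0.23 to 0.38) and *Rnaseh2a* in 4 of 12 (0.13 to 0.23), each positive in all 12. In *Cdk8* KO against WT the number was 0, and it was 1 with DESeq2 and 0 to 1 with a replicate left out (1 without clone H4). For ATRi in the *Cdk8* multiplex it was 0, against 1 with DESeq2 (*Top1*, adjusted p 0.031, beside 2.02% of all genes) and 2 with the clone as replicate block, and within *Cdk8* KO clones 0 against 2 with the block. The cause of these changes was not tested. The block changed no other call of a member.

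Over all genes, the calls in *Ccnc* KO against WT numbered 2284 and ranged from 635 to 3069 over other settings and from 289 to 2640 with a replicate left out. In *Cdk8* KO they numbered 806, with 5 to 1799 and 1 to 1512. For ATRi they numbered 206 in the *Ccnc* multiplex (41 to 845 and 21 to 250) and 16 in the *Cdk8* multiplex (13 to 2107 and 0 to 29). Within *Ccnc* KO clones they numbered 15 (17 to 462 and 3 to 6), and within *Cdk8* KO clones 0 (0 to 1193, and 0 with a clone left out). The interactions gave 0 genes (0 to 20 for *Ccnc* KO, 0 to 4 for *Cdk8* KO), and *Ccnc* KO against *Cdk8* KO 1 (1 to 4 and 1 to 11). The interactions without WT replicate 1 could not be fitted.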
